A study of Mus musculus with 6 samples.

Results

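Bile acid synthesis and hepatobiliary transport were followed in livers from Gα12 knockout (KO) and wild-type (WT) mice. Gα12 is a G protein α subunit, encoded by Gna12, that relays signals from membrane receptors. The gene group held 33 genes for the enzymes that make and conjugate bile acids and for the transporters that carry bile acids, organic anions, phospholipid and sterol into and out of hepatocytes. Their probes were found by RefSeq accession among 55681 array probes. All 33 genes had at least 1 probe, of 20284 named genes on the array, and 38 probes covered them. RNA came from 3 Gα12 KO and 3 WT male mice, 8 weeks old, kept on chow and fasted overnight, in a background that was 95% C57BL/6 with 129/Sv as the other strain named. The labels do not say how Gna12 was disrupted or in which cells, and name no Cre driver. Each liver was hybridised to 1 Agilent 1-colour mouse array. The comparison asked whether any step of bile acid production or transport differed in liver without Gα12.

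Hepatocytes make primary bile acids from cholesterol by a classical pathway, which CYP7A1 starts in the endoplasmic reticulum, and by an alternative pathway, which starts with oxidation of the side chain. The side chain is then shortened in peroxisomes, and the product is joined to taurine or glycine. Conjugated bile acids are pumped into the canaliculus by ABCB11, are taken back from the intestine, and return to hepatocytes from portal blood through SLC10A1 and the SLCO carriers. Bile acids activate the nuclear receptor FXR, which restrains synthesis and favours export.

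Each level below is a log2 signal from which the array's own 75th percentile was subtracted, and each difference is Gα12 KO minus WT on that log2 scale. Precision is set by having 3 arrays a genotype. A probe entered the test where 3 or more of the 6 arrays read it as well above background. By this filter 32 of the 33 genes were measured, of which 28 were well above background on all 6 arrays. Slc51a was not well above background on any array. Slc51b passed only through the WT livers. A gene measured by several probes is given by the brightest.

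Several facts of the arrays bear on every value below. All arrays shared a slide, with KO in its row 2 and WT in its row 1, and the effects of row and genotype cannot be told apart. Spots marked as non-uniform numbered 98 to 158 on KO arrays and 2 to 6 on WT arrays. WT replicates 1 and 2 stood apart from the other 4 livers. Across probes, the KO livers correlated with WT replicate 3 at r = 0.966 to 0.982 and with WT replicates 1 and 2 at 0.869 to 0.930. The median difference over all 12297 measured genes was -0.49, and it ran from -0.49 to -0.02 over 5 ways of scaling the arrays, so single differences are best read against that median. Gna12 had 1 probe, with log2 levels of -4.91, -4.62 and -3.47 in KO livers, against -3.48, -4.55 and -0.89 in WT livers. It was well above background only on WT replicate 3, so it does not check the labels of the other arrays. The hepatocyte markers Alb, Apoa1, Ttr, Serpina1a, Tat, Cps1, Ass1 and F2 were all measured, and the log2 of their summed level was 12.2 to 12.6 in KO livers and 12.0 to 12.8 in WT livers. For markers of other cells that log2 sum was 6.10 to 6.37 in KO livers and 6.51 to 7.25 in WT livers for stellate cells (7 of 8 measured, Reln dim), and 6.34 to 6.64 in KO livers and 6.28 to 7.504 in WT livers for macrophages (7 of 8, Cd68 not matched to a probe). For sinusoidal endothelium (8 of 8) it was 6.67 to 7.02 in KO livers and 6.87 to 7.37 in WT livers. Taken singly, 5 of the 8 endothelial markers had all KO livers below all WT livers (62.5%, against 21.1% of all genes), and 0 above. Lyve1, Kdr and Pecam1 overlapped, and Kdr (2.28, SE 0.67) and Pecam1 had positive differences. Of the macrophage markers, 0 of 7 had all KO livers below all WT livers. Stellate cell sums did not overlap between the genotypes, but they were mostly Dcn. Its log2 level was 5.94 to 6.22 in KO livers and 6.34 to 7.12 in WT livers. Singly, 4 of the 7 stellate cell markers had all KO livers below all WT livers (57.1%, against 21.1% of all genes). Col1a1, Col3a1 and Des overlapped, and Des had a positive difference. The part of other cells in the values below was not tested.

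Across the 32 measured genes, differences between the genotypes did not pass the test. By limma with Benjamini-Hochberg adjustment over all 23132 probes, 0 of 32 genes passed an adjusted p of 0.05, as did 0 of all probes (0% called), and their adjusted p-values ran from 0.235 to 0.968. Without adjustment, 4861 probes (21%) had a p below 0.05. With limma's trend and robust options these counts were 0 and 4916 probes (21.3%). Averaging the probes of each gene gave 7 genes past the adjusted threshold (0.0569%), none of them of this group. At an unadjusted p below 0.05 stood 5 of the 32 genes, against 20.6% of all genes: 4 genes (12.5%) had negative differences, against 16.6% of all genes, and 1 gene (3.12%) had a positive one, against 3.98%. These were Slc10a2, Slco1b2, Abcb11 and Abcg5 on the negative side and Atp8b1 on the positive side. The median difference was -0.56 for the group and -0.49 for all genes. The medians lay -0.068 apart, while single differences in the group ranged from -1.65 (Slc10a2) to 3.19 (Akr1d1).

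WT livers varied far more than KO livers in these genes. The median SD between livers was 0.22 in KO livers and 0.77 in WT livers for the group. Over all genes it was 0.19 in KO livers and 0.65 in WT livers. In 22 of the 32 genes both WT replicates 1 and 2 lay above all 3 KO livers (68.8%, against 61.5% of all genes), in 4 both lay below them (12.5%, against 17.3%), and in 6 neither held. The 22 include Slc51b, which passed the filter only through the WT livers. WT replicate 3 lay within 1 log2 unit of the KO mean in 28 of the 32 genes (87.5%, against 94.4% of all genes). The 4 exceptions were Cyp7a1, Cyp7b1, Slc10a2 and Slco1a4. Without WT replicate 3, limma called 56.7% of all probes, and 17 of the 32 genes as lower in KO (53.1%, against 50.6% of all genes) and 4 as higher (12.5%, against 11.5%). Without WT replicates 1 and 2 it called 0 probes (0%), with the single WT liver assumed to vary like the KO livers. In that fit Cyp8b1 and Slco1a4 had negative differences and Cyp7b1 a positive one at an unadjusted p below 0.05, against 4.06% and 2.72% of all genes.

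**Figure D1:**
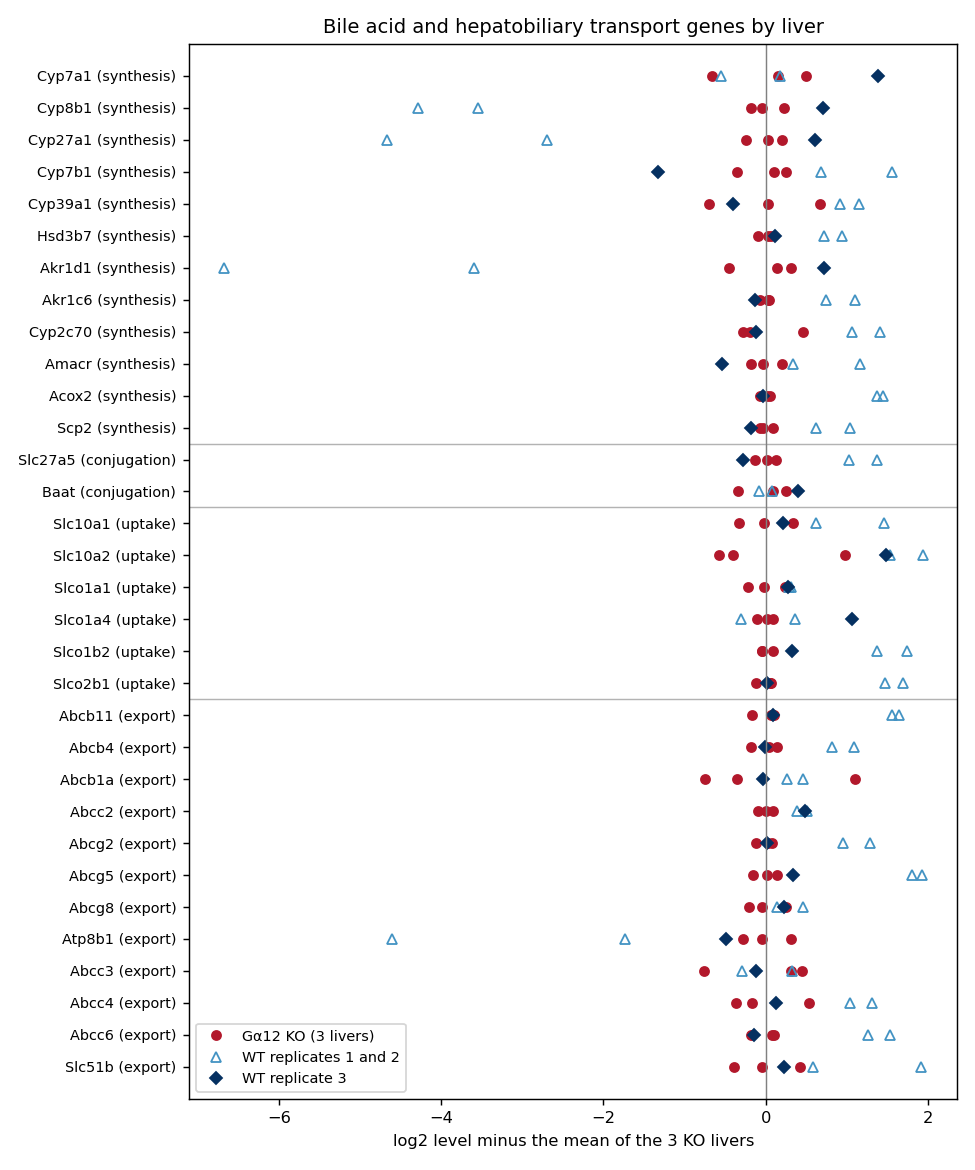
Each row is 1 measured gene, ordered by role, and the horizontal axis gives the log2 level minus the mean of the 3 KO livers. Filled circles are KO livers, open triangles WT replicates 1 and 2, and the dark diamond WT replicate 3, which lies within 1 log2 unit of the KO mean in 28 of 32 genes.

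The classical pathway showed no common difference in its first enzymes. Cyp7a1, the rate-limiting enzyme, had log2 levels of 2.70, 3.86 and 3.51 in KO livers 1 to 3, against 3.54, 2.80 and 4.75 in WT livers 1 to 3. The groups overlapped, with the lowest value in KO replicate 1 and the highest in WT replicate 3. The difference was -0.34 (SE 0.56, limma adjusted p = 0.674), and it turned to 0.04 to 0.14 under 3 of the 4 other scalings. Cyp8b1, which directs synthesis towards cholic acid, had 3.19, 3.06 and 3.47 in KO livers, against -1.04, -0.30 and 3.96 in WT livers. Here WT replicates 1 and 2 were far below the KO livers and WT replicate 3 above them all. The difference of 2.37 (SE 1.16, limma adjusted p = 0.248) therefore rested on WT replicates 1 and 2, and it was -0.71 against WT replicate 3 alone.

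Enzymes of the alternative pathway divided in the same manner. Cyp27a1, the mitochondrial enzyme that oxidises the sterol side chain, had log2 levels of 3.07, 2.79 and 3.24 in KO livers, against -1.63, 0.34 and 3.65 in WT livers, a difference of 2.25 (SE 1.15). Again the only WT liver near the KO values was replicate 3. Cyp7b1, the oxysterol hydroxylase of this pathway, had 7.39, 7.85 and 7.99 in KO livers, against 9.30, 8.43 and 6.42 in WT livers. All KO values lay between WT replicate 3, the lowest liver, and WT replicates 1 and 2, the highest. The difference of -0.31 (SE 0.69) became 0.17 to 0.24 under 3 other scalings. Cyp39a1, another oxysterol hydroxylase, had overlapping groups and a difference of -0.55 (SE 0.53).

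Enzymes that modify the sterol nucleus after these steps held the widest value of the group. Akr1d1, the reductase that saturates the steroid ring, had log2 levels of 1.94, 1.18 and 1.78 in KO livers, against -5.04, -1.96 and 2.35 in WT livers, and WT replicate 1 was not well above background. The difference of 3.19 had an SE of 1.59 (limma adjusted p = 0.250). Hsd3b7, the dehydrogenase that follows the first hydroxylation, had 8.46, 8.42 and 8.31 in KO livers, against 9.34, 9.12 and 8.51 in WT livers. Every KO liver was below every WT liver here, though WT replicate 3 exceeded the highest KO liver only slightly, and the groups overlapped under the 4 other scalings. Akr1c6, an aldo-keto reductase that acts on steroids, differed by -0.57 (SE 0.39). Cyp2c70, which makes muricholic acids in mice, differed by -0.79 (SE 0.47). Both had WT replicates 1 and 2 above the KO livers and WT replicate 3 near them.

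Of the peroxisomal side-chain genes, Acox2 and Scp2 varied little between KO livers (SD 0.064 and 0.082 in the brightest probe). Amacr, with an SD of 0.20, was close to the median of 0.19 over all genes. Acox2, the branched-chain acyl-CoA oxidase, had log2 levels of 6.87, 6.75 and 6.83 in KO livers, against 8.19, 8.26 and 6.79 in WT livers. WT replicate 3 lay inside the KO range and the other WT livers well above it, and the difference was -0.93 (SE 0.45, limma adjusted p = 0.246). Amacr, the racemase that prepares the side chain, differed by -0.32 (SE 0.46), with a sign that changed between scalings. Scp2, whose larger product is the thiolase of this step, differed by -0.50 (SE 0.39) in its brighter probe and 0.029 (SE 0.33) in the other.

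The conjugation genes did not differ alike. Slc27a5, the ligase that activates bile acids with coenzyme A, had log2 levels of 9.03, 8.77 and 8.92 in KO livers, against 10.28, 9.93 and 8.63 in WT livers. WT replicate 3 was the lowest of all livers in this probe, and the difference was -0.71 (SE 0.47, limma adjusted p = 0.324). The second probe gave a close difference of -0.72 (SE 0.36), but there WT replicate 3, at 8.31, lay inside the KO range of 8.00 to 8.34. Baat, the enzyme that adds taurine or glycine, had 3.12, 2.69 and 3.29 in KO livers, against 2.95, 3.11 and 3.44 in WT livers. Its groups overlapped throughout, WT replicates 1 and 2 did not stand apart, and the difference of -0.13 (SE 0.33) had no stable sign between scalings.

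**Figure D2:**
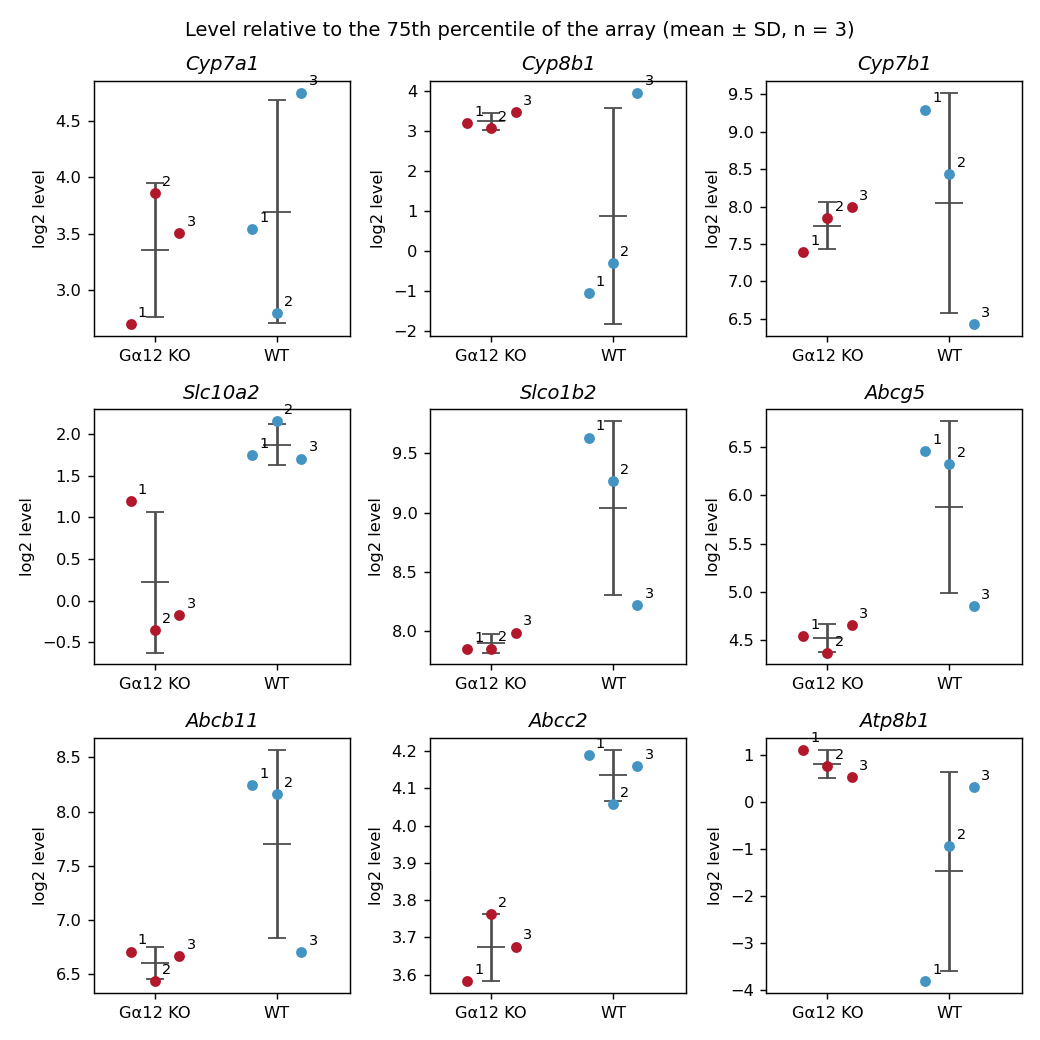
Log2 level of 9 genes in Gα12 KO livers (left in each panel) and WT livers (right), with the replicate number beside each point. The horizontal tick and bars give the mean ± SD of 3 livers, and each panel has its own vertical scale. Slc10a2 and Abcc2 are the panels in which WT replicate 3 lies with the other WT livers, while in Slco1b2, Abcg5 and Abcb11 it lies near the KO livers.

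Among uptake transporters, Slc10a2 had the largest negative difference of the whole group. Slc10a2 encodes the sodium-dependent bile acid transporter known from the ileum and from bile duct cells. Its log2 levels were 1.20, -0.35 and -0.18 in KO livers, against 1.75, 2.16 and 1.71 in WT livers. All KO livers were below all WT livers, WT replicate 3 stood with the other WT livers, and KO replicate 1 was nearer to them than the other KO livers were. The difference was -1.65 (SE 0.47, unadjusted p = 0.00825, limma adjusted p = 0.235), and it was -1.48 against WT replicate 3 alone. It kept its sign under 5 scalings (-1.65 to -1.17), but the groups overlapped when scaled on the probes detected on all arrays. In bulk liver, fewer cells of a type and less RNA per cell cannot be told apart. Of 8 bile duct markers 5 were measured, with a summed level of 1.77 to 1.92 in KO livers and 1.26 to 2.19 in WT livers, while Krt7, Epcam and Cftr were dim. Of 8 markers of intestinal epithelium only Fabp2 and Lgals4 were measured, with a sum of 5.64 to 5.87 in KO livers and 6.28 to 7.99 in WT livers. The defining intestinal genes Vil1, Cdx2, Fabp6, Muc2, Cdh17 and Sis were not measured above the filter. Groups did not overlap for the intestinal sum, which was mostly Fabp2. The log2 level of Fabp2 was 5.59 to 5.84 in KO livers and 6.18 to 7.90 in WT livers. That of Lgals4 was -0.39 to 0.69 in KO livers and 2.26 to 3.85 in WT livers. The difference of Lgals4 was -2.72 (SE 0.52), and -2.27 against WT replicate 3 alone. Both measured markers thus had all KO livers below all WT livers. Of all genes, 21.1% had all KO livers below all WT livers. The part of either cell type in the value of Slc10a2 was not tested.

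Slc10a1, the main sodium-dependent carrier of hepatocytes, gave opposite answers in its pair of probes. The brighter probe had log2 levels of 8.71, 9.02 and 9.37 in KO livers, against 10.49, 9.65 and 9.24 in WT livers, a difference of -0.76 (SE 0.41). The dimmer probe had 5.48, 5.35 and 5.52 in KO livers, against 1.87, 3.89 and 5.99 in WT livers, a difference of 1.53 (SE 0.91). In the KO livers and WT replicate 3 the distance between the probes was 3.23 to 3.86, but it was 8.62 in WT replicate 1 and 5.77 in WT replicate 2. No direction can therefore be given for Slc10a1. Cyp8b1, Cyp27a1, Akr1d1 and Atp8b1, like its dimmer probe, were lower in WT replicates 1 and 2 than in every KO liver. Each was read by a single probe, so no second probe checks those levels. The other 4 genes with a pair of probes did not diverge as far. The distance between probes varied over the 6 arrays by 0.12 for Slco2b1, 0.67 for Abcc6, 0.71 for Slc27a5 and 1.46 for Scp2, against 5.39 for Slc10a1. For Scp2 it was 2.30 in WT replicate 1 and 0.84 to 1.11 in the other livers.

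**Figure D3:**
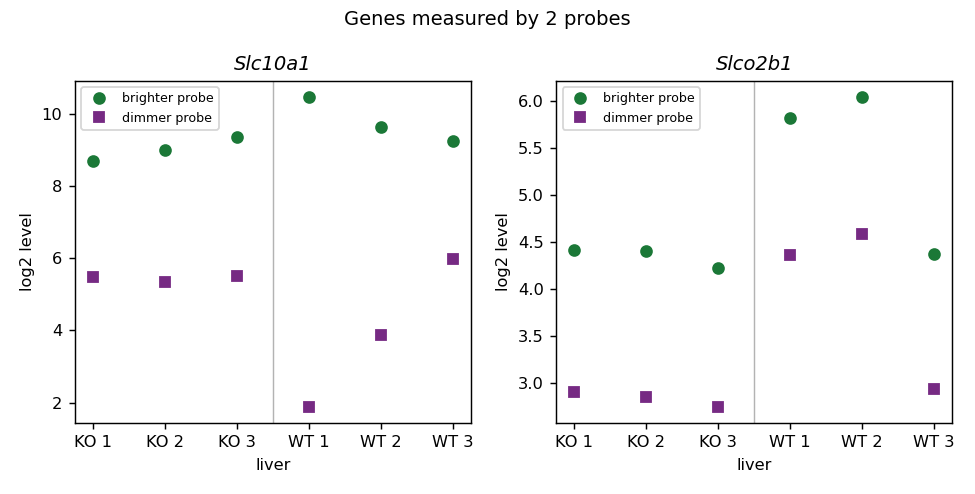
Log2 level of both probes of Slc10a1 (left) and of Slco2b1 (right) in each liver, KO livers left of the vertical line and WT livers right of it. The Slc10a1 probes part in WT replicates 1 and 2, by 8.62 and 5.77, while the Slco2b1 probes keep their distance within 0.12.

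Among the sodium-independent organic anion carriers, the groups overlapped for some genes and not for others. Slco1b2, the mouse counterpart of the human hepatocyte carriers for bilirubin and statins, had log2 levels of 7.85, 7.85 and 7.98 in KO livers, against 9.63, 9.27 and 8.22 in WT livers. The groups did not overlap under any of 5 scalings, yet WT replicate 3 lay much nearer to the KO livers than to the other WT livers. The difference was -1.15 (SE 0.42, limma adjusted p = 0.235), and -0.33 against WT replicate 3 alone. Slco2b1 had 4.41, 4.40 and 4.23 in KO livers, against 5.82, 6.05 and 4.37 in WT livers, so that WT replicate 3 fell inside the KO range, with separate groups under 3 of the 4 other scalings. Its difference was -1.06 (SE 0.48), and -1.13 (SE 0.47) in the second probe, in which every KO liver was below every WT liver, the gap to WT replicate 3 being slight. Slco1a1, a carrier prominent in male mouse liver, had 4.51, 4.70 and 4.95 in KO livers, against 5.04, 5.01 and 4.996 in WT livers. Those WT livers were nearly equal and lay above every KO liver, but the difference of -0.30 (SE 0.30) changed sign under 3 of the 4 other scalings. For Slco1a4 the groups overlapped (difference -0.37, SE 0.41), with WT replicate 3 the highest liver at 3.01.

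The canalicular export pumps mostly followed the division between WT livers. Abcb11, the bile salt export pump, had log2 levels of 6.71, 6.43 and 6.67 in KO livers, against 8.25, 8.16 and 6.70 in WT livers. WT replicate 3 fell between KO replicates 1 and 3, so the groups overlapped, although they were separate under 3 of the 4 other scalings. The difference of -1.10 (SE 0.47, limma adjusted p = 0.237) came to -0.10 against WT replicate 3 alone. Abcb4, which moves phosphatidylcholine into bile, differed by -0.63 (SE 0.38), and Abcg2, a pump for sulfated and other organic anions, by -0.75 (SE 0.40). In both, WT replicate 3 also lay within the KO range, but the groups of Abcg2 were separate under those same 3 scalings.

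Promoter sequences are shown here for Abcb11 and Slco1b2. Among the genes of the group, only their windows held near matches to an inverted repeat known as a binding motif of FXR. The half-site AGGTCA, any 1 base and the reverse complement TGACCT were searched in the 250 bases before each start in the RefSeq promoter table (GRCm38.p6), which lists 24 of the 33 genes, allowing 1 of the fixed letters to differ. The motif reads the same on both strands. Near matches were found in 26 of 32851 windows (0.0791%) and in 2 of the 24 genes, and exact matches in 2 windows, neither of these genes. Capitals mark the near match, and 30 bases are shown on each side. The Abcb11 stretch lies at chr2:69342637-69342709 on the minus strand and the Slco1b2 stretch at chr6:141629400-141629472 on the plus strand.
Abcb11: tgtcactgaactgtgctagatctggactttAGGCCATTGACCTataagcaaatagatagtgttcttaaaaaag
Slco1b2: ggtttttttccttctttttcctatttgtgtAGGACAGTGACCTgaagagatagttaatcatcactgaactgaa
Counted from 1 at the 5′ end of the motif, the substitution is T4C in Abcb11 and T4A in Slco1b2. The match begins 63 bases before the start of Abcb11 and 88 bases before that of Slco1b2. A match describes the letters only.

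Abcg5 and Abcg8, whose products pair into the pump that secretes sterols into bile, did not have like differences. Abcg5 had log2 levels of 4.54, 4.37 and 4.66 in KO livers, against 6.45, 6.33 and 4.86 in WT livers. The groups did not overlap under any of 5 scalings, but WT replicate 3 exceeded the highest KO liver by far less than the other WT livers did. The difference was -1.35 (SE 0.47, limma adjusted p = 0.235), and -0.33 against WT replicate 3. Abcg8 had -0.80, -0.34 and -0.63 in KO livers, against -0.46, -0.13 and -0.37 in WT livers. Its groups overlapped, WT replicates 1 and 2 did not lie apart, and the difference of -0.27 (SE 0.31) had no stable sign between scalings. The difference between these 2 effects was not tested.

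The starts of Abcg5 and Abcg8 lie head to head in the RefSeq promoter table, and the 109 bases between them are shown because both genes share them. The stretch lies at chr17:84683012-84683120 in GRCm38.p6 and is written on the plus strand, which is that of Abcg8. Capitals mark the letters GATAA, searched on both strands, with no overlap between matches.
Abcg5 and Abcg8: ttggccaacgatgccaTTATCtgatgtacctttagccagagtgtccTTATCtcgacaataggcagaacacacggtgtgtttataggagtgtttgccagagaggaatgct
The stretch held 2 matches. Of all windows of 109 bases directly before a listed start, 9.36% held at least 1 and 0.788% at least 2.

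Among the remaining canalicular genes, Abcc2 and Abcb1a departed from the division between WT livers. Atp8b1 followed it in the opposite direction, with WT replicates 1 and 2 the lowest. Abcc2, the pump for conjugated bilirubin and glutathione conjugates, had log2 levels of 3.58, 3.76 and 3.67 in KO livers, against 4.19, 4.06 and 4.16 in WT livers. Its 3 WT livers were alike and above all KO livers. The difference of -0.46 (SE 0.29, limma adjusted p = 0.308) was nevertheless near the median of all genes, and it was -0.01 to 0.01 under 3 other scalings. Atp8b1, a flippase that keeps the canalicular membrane ordered, had 1.11, 0.76 and 0.52 in KO livers, against -3.81, -0.93 and 0.31 in WT livers, of which replicate 1 was not well above background. All KO livers were above all WT livers under each of 5 scalings, though WT replicate 3 was close below them. The difference was 2.27 (SE 0.94, limma adjusted p = 0.235), and 0.48 against WT replicate 3. Abcb1a, a drug efflux pump, differed by -0.23 (SE 0.51) and was dim in 1 KO liver.

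Exporters of the basolateral membrane, which return bile acids and conjugates to blood, overlapped between genotypes in the brightest probe of each of the 4 measured genes. Abcc3 had log2 levels of 5.52, 5.38 and 4.31 in KO livers, against 4.79, 5.39 and 4.96 in WT livers, a difference of 0.027 (SE 0.42). The spread here was in the KO livers, through replicate 3. Abcc4 had -0.66, -1.37 and -1.57 in KO livers, against -0.16, 0.11 and -1.07 in WT livers, a difference of -0.83 (SE 0.43). Abcc6, a transporter whose human counterpart is needed to prevent ectopic calcification, differed by -0.88 (SE 0.48), and by -0.84 (SE 0.37) in its second probe. In that second probe all KO livers were below all WT livers. Slc51b, a subunit of the organic solute transporter, was well above background in 3 WT livers and 0 KO livers. Its log2 levels were -3.37, -3.71 and -2.90 in KO livers, against -1.41, -2.74 and -3.10 in WT livers. The lowest level read as well above background was -2.79 to -2.48 on KO arrays, and among the WT values WT replicate 1 alone exceeded all of these. No fold is given for Slc51b, since it would rest on that liver. Slc51a, the other subunit, ranged from -5.10 to -4.78 in KO livers and from -6.19 to -4.21 in WT livers, all near the floor of the arrays.

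Compared by role, the 4 classes had overlapping ranges of differences. The median difference was -0.42 over 12 synthesis genes (range -0.93 to 3.19), -0.42 over 2 conjugation genes (-0.71 and -0.13), -0.91 over 6 uptake genes (-1.65 to -0.30 with the brighter Slc10a1 probe) and -0.69 over 12 measured export genes of 13 (-1.35 to 2.27). With the other Slc10a1 probe the uptake median was -0.72 (range -1.65 to 1.53), and without Slc10a1 it was -1.06 over 5 genes. The export and group medians include Slc51b, which passed the filter only through the WT livers. With only genes well above background on all 6 arrays, these medians were -0.75 and -0.58. At an unadjusted p below 0.05, 0 of 12 synthesis genes, 0 of 2 conjugation genes, 2 of 6 uptake genes and 2 of 12 export genes had negative differences, against 16.6% of all genes. On the positive side there was 1 export gene, against 3.98% of all genes. All KO livers lay below all WT livers for 1 synthesis gene, 0 conjugation genes, 3 uptake genes and 2 export genes, and above them for 1 export gene. Together these are 6 of 32 genes (18.8%) below, against 21.1% of all genes, and 1 of 32 (3.12%) above, against 4.42%. For 3 of these 7 genes, Slco1b2, Abcg5 and Atp8b1, the groups were separate under all 5 scalings. The share of all genes separate under all 5 is not given here. Under single scalings, 15% to 21.1% of all genes lay below and 4.42% to 8.25% above. The medians of the synthesis and conjugation classes turned to 0.058 and 0.055 when scaled on the probes detected on all arrays, so neither class has a direction of its own.

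Each WT liver had its own distance from the KO mean. In the median over uptake genes, WT replicates 1, 2 and 3 lay 1.46, 0.998 and 0.30 above it with the brighter Slc10a1 probe, and 0.89, 0.87 and 0.44 above it with the other. Over export genes they lay 1.06, 0.71 and 0.059 above it. Over synthesis genes the distances were 0.99, 0.65 and -0.075, over the 2 conjugation genes 0.65, 0.55 and 0.063, and over all genes 0.82, 0.71 and 0.029. These medians are signed, so values of WT replicate 3 above and below the KO mean offset each other. Without sign, its median distance was 0.47 over synthesis genes and 0.34 over conjugation genes, against 0.25 over all genes. It was 0.30 over uptake genes with the brighter Slc10a1 probe and 0.14 over export genes. By signed median, WT replicate 3 was the nearest WT liver to the KO mean in each of the 4 classes, with either Slc10a1 probe.

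**Figure D4:**
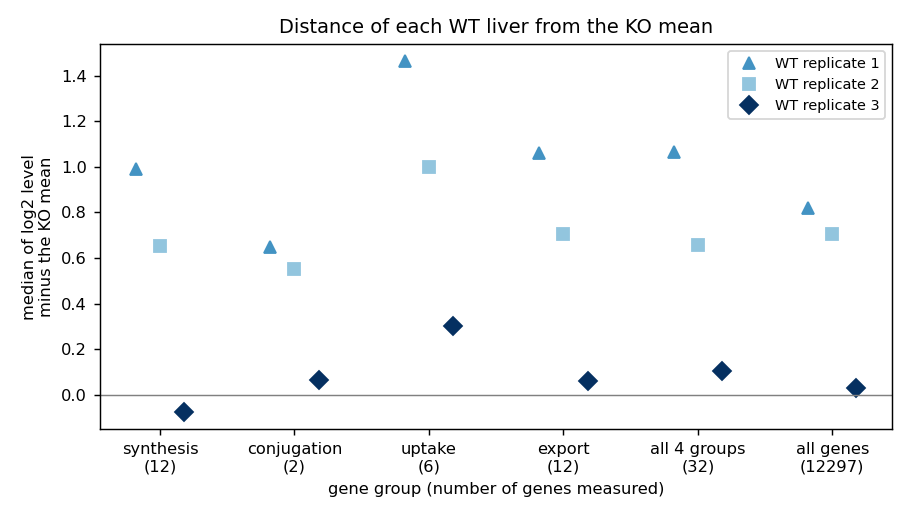
Median, over the genes of each class, of the log2 level minus the mean of the 3 KO livers, for each WT liver, with all 32 genes and all 12297 genes for comparison. The KO mean is the line at 0. WT replicate 3 lies between -0.075 and 0.30, and WT replicates 1 and 2 lie between 0.55 and 1.46, where Slc10a1 is read by its brighter probe.

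Regulators of bile acid synthesis had negative differences more often than positive ones, as did all genes. Of 16 listed regulators 15 were measured, 4 had negative and 0 positive differences at an unadjusted p below 0.05 (16.6% and 3.98% of all genes), and 0 passed over all probes. Klb, the co-receptor through which intestinal growth factor signals reach hepatocytes, had log2 levels of 2.24, 2.26 and 2.37 in KO livers, against 3.87, 3.71 and 3.13 in WT livers. All WT livers lay above all KO livers by a clear gap, WT replicate 3 included, and the difference was -1.28 (SE 0.33, limma adjusted p = 0.235). Nr1i3, the xenobiotic receptor CAR, had 4.03, 4.36 and 3.84 in KO livers, against 5.12, 5.16 and 4.79 in WT livers (difference -0.95, SE 0.32). Nr5a2, an activator of Cyp7a1 and Cyp8b1, differed by -1.12 (SE 0.44). The KO mean minus WT replicate 3 was -0.24 for Nr5a2.

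FXR and its target SHP were read for their roles, outside the rule for naming genes and after their values had been seen. Nr1h4, which encodes FXR, had log2 levels of 5.39, 5.69 and 5.91 in KO livers, against 7.06, 6.24 and 6.22 in WT livers (difference -0.84, SE 0.37). Nr0b2, which encodes SHP, had 1.46, 1.19 and 1.38 in KO livers, against -0.77, 0.73 and 1.40 in WT livers (difference 0.89, SE 0.55). WT replicate 3 had nearly the KO level of Nr0b2 and was above every KO liver in Nr1h4. Neither passed the test.

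Neighbouring genes of the pathway were counted in the same way. Of 17 other genes of bile acid and sterol handling 14 were measured, and 2 (14.3%) had negative differences and 0 positive ones at an unadjusted p below 0.05, against 16.6% and 3.98% of all genes. Acaa1b, a peroxisomal thiolase gene, had log2 levels of 6.45, 6.00 and 6.06 in KO livers, against 7.92, 7.22 and 6.78 in WT livers (difference -1.14, SE 0.39). All 13 other transport and canalicular genes listed were measured, with 2 negative differences (15.4%) and 1 positive difference (7.69%) at that level, against the same shares of all genes. Slc9a3r1, a scaffold for membrane transporters, had 4.31, 4.26 and 4.24 in KO livers, against -0.12, 1.17 and 3.92 in WT livers (difference 2.62, SE 0.91). Rdx, which encodes radixin and ties canalicular proteins to actin, differed by -1.23 (SE 0.45). For Slc9a3r1 and Rdx the separation lay again in WT replicates 1 and 2, and the KO mean minus WT replicate 3 was 0.35 and -0.27.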

How the data were processed

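Liver RNA of 3 Gα12 KO and 3 WT mice was hybridised to 1-colour Agilent arrays with 0.5 µg of RNA labelled with Cy3 for each, per the labels' protocols. The deposited scanner files hold spot intensity on a linear scale, read with Agilent Feature Extraction 10.7.3.1, background-subtracted and with a floor on low values, per the file headers. The deposited series matrix holds log2 values, which by comparison are the log2 of that intensity plus a constant for each array. How those constants were set is not stated by the labels or headers. The array design used mm9, so symbols came from a RefSeq table (GRCm38.p6) by unversioned accession, which named 26762 of 55681 probes, and no gene coordinates were taken from it.

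Each processed intensity was put on the log2 scale, each array's 75th percentile (non-control spots) was subtracted, and a probe's spots were averaged without those marked as outliers. No non-control spot was saturated. Probes well above background on at least 3 arrays were kept (23132). Gα12 KO minus WT was fitted with limma 3.58.1 in R 4.3.3 (two-sided, Benjamini-Hochberg over all kept probes, threshold 0.05), after a check on simulated data. The plan had named the raw mean spot signal, and the median was used for normexp instead. The labels describe 3 animals per group, and each array was taken as 1 animal. Every gene of the group was reported, and up to 4 others per list with an unadjusted p below 0.05 and groups that did not overlap. A regulator that this rule names is not reported here. Members and lists were chosen with earlier results of these data known.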

Additional observations from a re-analysis of the deposited data

How the results depend on the processing

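No gene of the group passed an adjusted p of 0.05 in limma under the other scalings, filters (28 genes tested with the filter on all 6 arrays), variance model, replicate block or deposited matrix (30 genes tested), or with any array left out except WT replicate 3. Leaving out 1 array gave 0 to 13123 probes past the threshold, 0 to 21 of the 32 genes past it, 1 to 22 genes at an unadjusted p below 0.05, a group median of -0.94 to -0.41 and a synthesis median of -0.83 to -0.22, and the upper counts and lowest medians were those without WT replicate 3. Past the threshold were 2 probes after normexp, 2 probes with the filter on all 6 arrays and 7 genes with the mean over probes. With scaling on the probes detected on all arrays, the medians were -0.087 for the group, 0.058 for synthesis, 0.055 for conjugation, -0.44 for uptake and -0.22 for export, with 3 genes at an unadjusted p below 0.05, while that of all genes was -0.02. Quantile normalization gave -0.11 for conjugation, -0.32 for export and 3 such genes. After normexp the medians were -0.21 for the group, -0.11 for conjugation, -0.48 for uptake and -0.27 for export. Without WT replicates 1 and 2 together they were -0.11 for the group, 0.075 for synthesis, -0.063 for conjugation, -0.30 for uptake and -0.059 for export, with 3 such genes. That fit has 1 WT liver, assumed to vary like the KO livers. The cause of these shifts was not tested. The median of the group lay -0.48 from that of all genes without the filter on dim probes and -0.17 to -0.04 from it under the other settings. Genes whose difference changed sign numbered 14 without WT replicates 1 and 2, 9 with scaling on the detected probes, and 0 to 6 under the others. Groups compared by scaling, chosen after seeing the data, had 4 to 8 of the 32 genes with all KO below all WT and 1 above. The shares of all genes were 15% to 21.1% below and 4.42% to 8.25% above. Replicate numbers were shared between genotypes by label only, since same-numbered arrays correlated in their deviations at -0.13, 0.01 and -0.04. With the replicate block, 7 genes had an unadjusted p below 0.05 (3 negative, 4 positive), against 5 without it. With the other Slc10a1 probe or without Slc10a1, chosen after seeing the data, the group median was -0.52 and -0.55. Signals near background limited Slc51a, Slc51b, Akr1d1, Atp8b1 and Abcb1a.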
